A study of Homo sapiens with 9 samples.

Results

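Genes for subunits of the proteasome were taken as every row of the count table whose symbol was PSMA, PSMB, PSMC or PSMD followed only by a number. This gave 39 genes of 23368 rows, of which 37 had enough reads to be tested among 13648 genes. PSMA8, which encodes a testis form of an alpha subunit, had 0 counts in all 9 libraries, and PSMB11, the thymus form of a catalytic subunit, had 1 count in 1 scrambled and 1 siLRWD1-6 library. Neither was tested.

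The study used A673, an established Ewing sarcoma cell line, and asked how gene expression changed when LRWD1 was depleted. LRWD1 encodes a chromatin protein that works with the origin recognition complex in DNA replication. Cells received 13 nM siRNA by reverse transfection with siLentFect, and RNA was taken at 48 h from 3 independent experiments. The groups were a scrambled siRNA and the LRWD1 siRNAs siLRWD1-5 and siLRWD1-6, with 3 libraries each. All groups were grown in medium with Zeocin and blasticidin, and every library came from this single line.

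The proteasome degrades proteins that carry ubiquitin chains. Its core particle stacks rings of alpha subunits (PSMA genes), which gate the entry, around rings of beta subunits (PSMB genes), some of which hold the proteolytic sites. The regulatory particle consists of a base, with the PSMC ATPases that unfold and thread substrates, and a lid that removes ubiquitin (PSMD genes). Interferon-exposed and immune cells replace the catalytic subunits PSMB5, PSMB6 and PSMB7 by PSMB8, PSMB9 and PSMB10, which forms the immunoproteasome and alters the peptides made for antigen presentation.

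Libraries held 11971179 to 15674452 counted reads, and the 39 genes took 0.7264% to 0.795% of them in the scrambled group, 0.658% to 0.6983% with siLRWD1-5 and 0.6879% to 0.702% with siLRWD1-6. Levels are given as CPM, counts scaled to a common library size and corrected for library composition by the trimmed mean of M-values (TMM). LRWD1 was at 49.09, 54.62 and 49.31 CPM in the scrambled libraries, at 10.59, 11.33 and 10.39 CPM with siLRWD1-5 and at 6.55, 8.11 and 8.551 CPM with siLRWD1-6. Of 6 Ewing sarcoma markers, 5 had a mean of at least 1 CPM, while CD99 was at 0 in the scrambled and siLRWD1-6 libraries. Their summed level was 2300 to 3110 CPM in the scrambled group, 1740 to 2040 CPM with siLRWD1-5 and 2140 to 2370 CPM with siLRWD1-6. CCND1 made up most of the sum (means of 2390, 1650 and 1940 CPM), while PAPPA was higher with both siRNAs (110, 159 and 169 CPM), and the part of these markers in any result was not tested. Summed leukocyte markers reached at most 0.697 CPM in any library, with CD3E at 0. Scrambled replicate 2 stood apart: it differed from the other scrambled libraries by a chi-square per gene of 28.39 and 24.2, against 2.983 to 5.452 in all other replicate pairs. In that library 32 of the 37 tested subunit genes were higher than in the other scrambled libraries, with a median log2 difference of 0.15 against 0.02 over all genes tested. Results are therefore also given without it.

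Levels of different genes were compared per kilobase of exon (CPM per kb). In the scrambled libraries 34 constitutive genes, meaning all tested members but the immunoproteasome subunits, had a median of 114.4 CPM per kb. PSMB4, a non-catalytic beta subunit, was highest at 424.3 ± 36.5 CPM per kb (SD, n = 3), followed by PSMB1 at 303.8 ± 22.6 CPM per kb and the ATPase gene PSMC3 at 286.1 ± 7.07 CPM per kb. PSMB2, which sits in the same beta rings as PSMB4 and PSMB1, stood at 36.03 ± 0.63 CPM per kb. That value rests on annotated exons of 4843 bases, against 964 for PSMB4 and 928 for PSMB1. Before division by length the means were closer, at 174.5 CPM for PSMB2, 409.1 for PSMB4 and 281.9 for PSMB1. Of 33 neighbouring pairs in the order by CPM per kb, 26 overlapped in the range of their scrambled libraries. The order depended on the length used. With the longest annotated transcript as length PSMB4 stayed highest, but PSMA7 went from 254 to 399.9, above PSMB1 at 303.8. PSMB5, at 300.6, then also lay above PSMC3 at 286.1. The assembly factors PSMD5, PSMD9 and PSMD10, which hold ATPases of the base before it is complete, lay between 22.46 and 28.47 CPM per kb.

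PSMC1 was the exception at the low end, with 1.549 ± 0.271 CPM per kb. PSMC1 encodes an ATPase that every proteasome contains. Of the 50-base words of its longest annotated transcript, 97.5% also occurred in other genes, mainly NRDE2 and PSMC1P1. Reads from such stretches may have been left uncounted or given to another gene, so the PSMC1 values are uncertain. PSMA6 shared 85.6% of its words, PSMA2 51%, PSMD7 46.9%, PSMA1 44.5% and PSMB10 38.9%, so these too are less certain. In 17 of the 39 genes no word was shared, among them PSMB1, PSMA7, PSMD1, PSMB5, PSMB6 and PSMB7. The immunoproteasome genes were low, at 11.92 CPM per kb for PSMB10, 4.868 for PSMB8 and 1.021 for PSMB9.

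**Figure D1:**
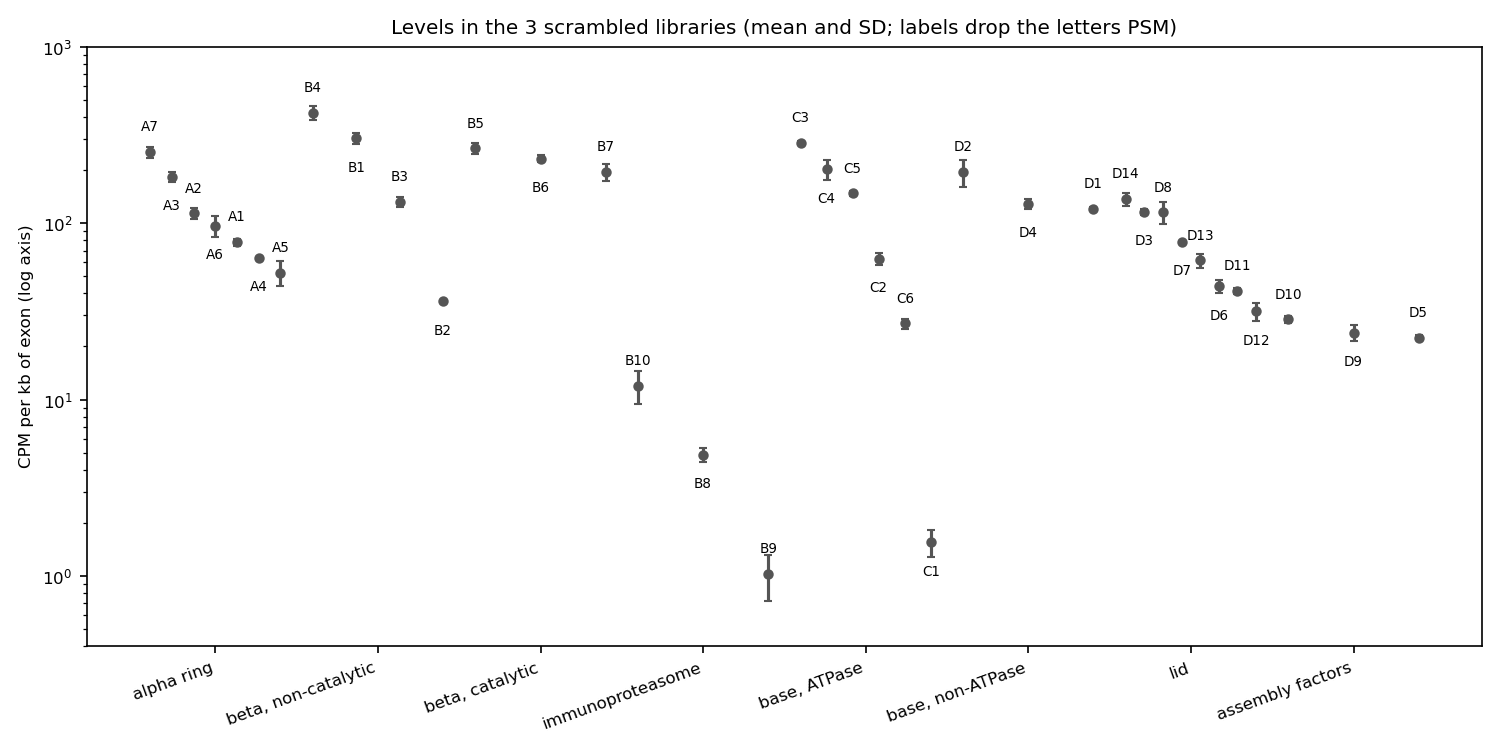
Levels of the 37 tested subunit genes in the 3 scrambled libraries, as CPM per kb of exon on a log axis (mean and SD), grouped by place in the proteasome. The constitutive genes other than PSMC1 lie between PSMD5 at 22.46 and PSMB4 at 424.3, while PSMC1 and the immunoproteasome genes lie lower.

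Proteasome genes other than PSMB8 and PSMB9 tended to be lower with siLRWD1-5. Of the 37 tested members, 15 were called lower (40.5%) by the quasi-likelihood test of edgeR at a Benjamini-Hochberg adjusted p under 0.05, where 20.3% of all genes tested were called lower. Only 2 members were called higher (5.41%), against 18.5% of all genes. The median log2 fold change was -0.13 over the members and -0.00605 over all genes, and 33 of 37 members were below 0. In 17 members every siLRWD1-5 library was below every scrambled library, which held for 24.6% of all genes. Without scrambled replicate 2, 15 members were called lower and 3 higher, with a median of -0.08, while 25% of all genes were called lower and 24% higher. For the lower calls and the median, the gap between members and all genes was therefore smaller in that fit. For the higher calls it was not. The members' summed level was 7672 ± 530 CPM in the scrambled group, 6659 ± 237 CPM with siLRWD1-5 and 7099 ± 63.1 CPM with siLRWD1-6. Scrambled replicate 2, at 8267 CPM, raised the scrambled mean, and the other scrambled libraries were at 7497 and 7251 CPM. The siLRWD1-6 libraries, at 7063, 7172 and 7062 CPM, were nearer to these. In bulk RNA a lower level in all cells and a smaller share of cells with a high level cannot be told apart.

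In the core particle 5 of 14 constitutive genes were lower with siLRWD1-5 (35.7%, against 20.3% of all genes tested). The median log2 fold change was -0.11. PSMB1, a non-catalytic beta subunit, changed most. Its level was 268.3, 306.1 and 271.4 CPM in the scrambled libraries and 146.9, 151.6 and 136.5 CPM with siLRWD1-5. The groups were far from overlapping, and the log2 fold change was -0.96 (SE 0.07, adjusted p = 1.4e-06, edgeR). With siLRWD1-6 PSMB1 was at 279.8, 272.2 and 272.6 CPM, inside the scrambled range.

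PSMA7, an alpha ring subunit, was at 396.6, 428 and 370.4 CPM in the scrambled libraries and at 256.1, 273.4 and 267.1 CPM with siLRWD1-5. All siLRWD1-5 libraries were lower, with a log2 fold change of -0.59 (SE 0.06, adjusted p = 3.07e-05, edgeR). PSMB2, the other non-catalytic beta gene called lower, was at 177.7, 171.6 and 174.2 CPM against 117.8, 121.5 and 112.2 CPM. The groups did not overlap, and the log2 fold change was -0.57 (SE 0.06, adjusted p = 1.39e-05, edgeR). The other non-catalytic beta genes, PSMB3 and PSMB4, had log2 fold changes of -0.07 and -0.04, and the alpha ring genes PSMA2, PSMA3, PSMA4, PSMA5 and PSMA6 lay between -0.12 and -0.000575. These 7 genes did not pass the test. PSMA1, which had a log2 fold change of -0.23 (SE 0.06, adjusted p = 0.0115, edgeR), completes the core genes called lower outside the catalytic sites.

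Among the constitutive catalytic subunits, PSMB6, which carries the caspase-like site, was at 208.2, 209.6 and 191.4 CPM in the scrambled libraries and at 181.1, 181.3 and 168.3 CPM with siLRWD1-5. The siLRWD1-5 libraries were all lower, by 0.20 on the log2 scale (SE 0.06, adjusted p = 0.0191, edgeR). PSMB5, which carries the chymotrypsin-like site targeted by bortezomib, ranged from 358.6 to 406.3 CPM against 342.5 to 369.9 CPM. PSMB7, with the trypsin-like site, ranged from 178.2 to 214.5 CPM against 171.7 to 188.1 CPM. Both pairs of ranges overlapped, and neither gene was called (log2 fold changes of -0.13 and -0.10, adjusted p = 0.123 and 0.353, edgeR).

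**Figure D2:**
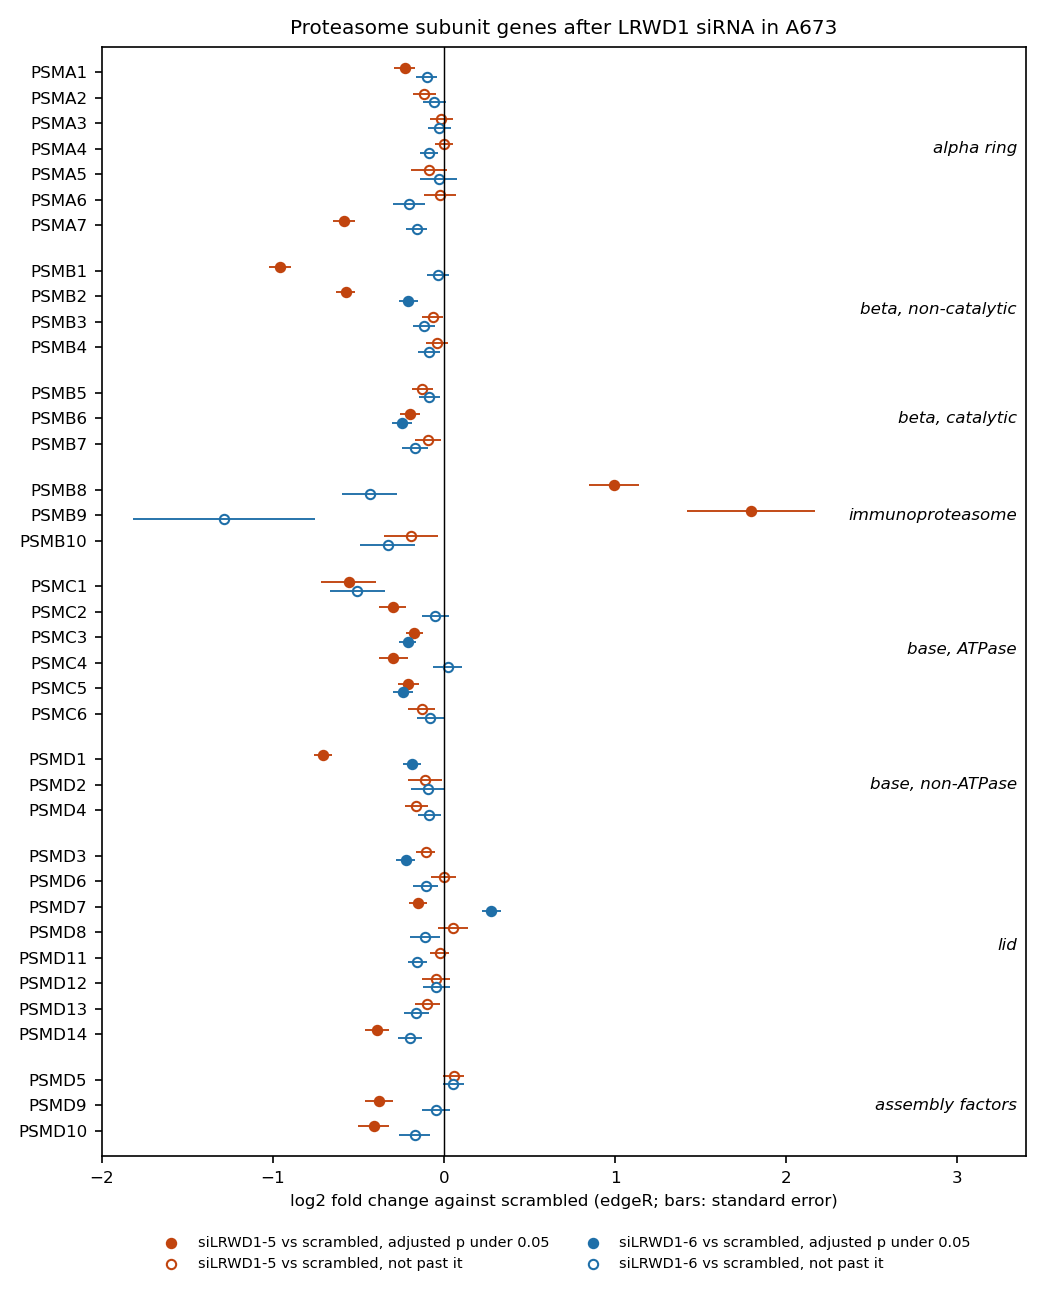
Log2 fold change against scrambled for the 37 tested subunit genes (points, with bars for the standard error), for siLRWD1-5 in orange and siLRWD1-6 in blue; filled points have an adjusted p under 0.05. Most points lie slightly left of 0, PSMB1 and PSMD1 lie furthest left for siLRWD1-5 among constitutive genes, and PSMB8 and PSMB9 lie on opposite sides of 0 for the siRNAs.

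In the regulatory particle 8 of 17 genes were lower with siLRWD1-5 (47.1%, against 20.3% of all genes tested). The median log2 fold change was -0.15. PSMD1, a large scaffold of the base to which ubiquitin receptors dock, was at 396.4, 410.4 and 405.9 CPM in the scrambled libraries and at 250.2, 255.8 and 237.7 CPM with siLRWD1-5. The groups were widely separated, with a log2 fold change of -0.71 (SE 0.05, adjusted p = 2.37e-06, edgeR). PSMD2, the other large scaffold, ranged from 619.8 to 832.5 CPM against 629.6 to 652.7 CPM, so the groups overlapped, and only scrambled replicate 2, at 832.5 CPM, was above the siLRWD1-5 libraries. PSMD2 had a log2 fold change of -0.11 (SE 0.10, adjusted p = 0.408, edgeR). The base ubiquitin receptor gene PSMD4 was lower in all siLRWD1-5 libraries without passing the test, at -0.16 (adjusted p = 0.0779, edgeR).

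Of the 6 ATPase genes 5 were called lower (83.3%, against 20.3% of all genes tested). The exception was PSMC6 (log2 fold change -0.13, adjusted p = 0.213, edgeR). The changes were small: PSMC2 -0.30, PSMC4 -0.30, PSMC5 -0.21 and PSMC3 -0.17 on the log2 scale, with PSMC1 at -0.56. PSMC2, for example, was at 194.6, 207.8 and 177.3 CPM in the scrambled libraries and at 167.9, 162.3 and 140.3 CPM with siLRWD1-5. These groups were separate, but by less than the range within either of them.

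In the lid, PSMD14, the deubiquitinase that cuts chains off the substrate, was at 254, 295.2 and 255.6 CPM in the scrambled libraries and at 210.1, 205.3 and 197.5 CPM with siLRWD1-5. All siLRWD1-5 libraries were lower, and the log2 fold change was -0.39 (SE 0.07, adjusted p = 0.000951, edgeR). Its partner in the lid, PSMD7, was lower by 0.15 (adjusted p = 0.0432, edgeR). The other 6 lid genes, PSMD3, PSMD6, PSMD8, PSMD11, PSMD12 and PSMD13, lay between -0.11 and 0.05 and did not pass the test. Of the base assembly factors, PSMD10, known as gankyrin, was at 46.18, 43.11 and 42.75 CPM against 37.3, 32.89 and 28.98 CPM (log2 fold change -0.41, SE 0.09, adjusted p = 0.00435, edgeR), and PSMD9 was at -0.38 (SE 0.08, adjusted p = 0.00383, edgeR). PSMD9 shares 35.8% of its words with other genes. PSMD5 was at 0.06 and was not called.

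Leaving out any one of the 9 libraries left 9 of the 15 lower calls in place, namely PSMA1, PSMA7, PSMB1, PSMB2, PSMC2, PSMD1, PSMD9, PSMD10 and PSMD14. The other 6 were lost without some library, always at the same sign. PSMB6 was lost without scrambled replicate 1 (adjusted p = 0.0592, edgeR) or siLRWD1-5 replicate 3 (0.0752). PSMC1 was lost without siLRWD1-5 replicate 1 (0.0624), PSMC3 without siLRWD1-5 replicate 2 (0.0542) or 3 (0.0748), PSMC4 without siLRWD1-5 replicate 1 (0.0607) or 3 (0.0585), and PSMC5 without siLRWD1-5 replicate 1 (0.0539) or 3 (0.0665). PSMD7 was lost without any library but scrambled replicate 2, with adjusted p-values from 0.0646 to 0.143.

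**Figure D3:**
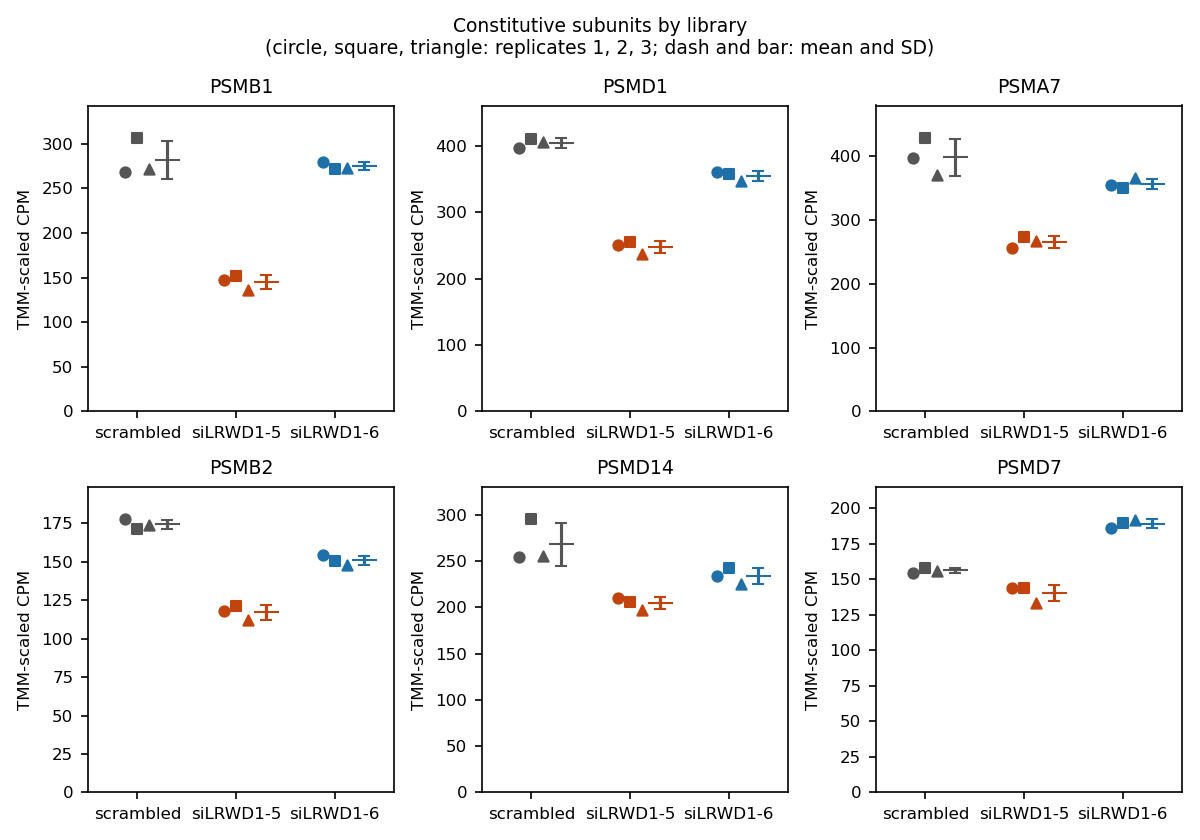
TMM-scaled CPM of PSMB1, PSMD1, PSMA7, PSMB2, PSMD14 and PSMD7 in each library (circle, square and triangle for replicates 1, 2 and 3; dash and bar for the mean and SD), on axes that start at 0. In the first 5 genes all siLRWD1-5 libraries lie below all scrambled libraries, while PSMD7 is highest with siLRWD1-6, at 185.8 to 191.8 CPM.

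The immunoproteasome subunits PSMB8 and PSMB9 moved the other way with siLRWD1-5. PSMB8 was at 7.644, 8.185 and 6.79 CPM in the scrambled libraries, at 14.74, 18 and 12.34 CPM with siLRWD1-5 and at 5.365, 5.626 and 5.757 CPM with siLRWD1-6. The 3 groups did not overlap: siLRWD1-5 was highest and siLRWD1-6 lowest. PSMB8 rose with siLRWD1-5 by 1.00 on the log2 scale (SE 0.15, adjusted p = 0.000307, edgeR), while the change of -0.43 with siLRWD1-6 did not pass the test (SE 0.16, adjusted p = 0.0891, edgeR).

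PSMB9 was near the limit of detection. It had 11, 11 and 16 counts in the scrambled libraries, 63, 44 and 30 with siLRWD1-5 and 4, 10 and 1 with siLRWD1-6, or 0.6949, 0.8915 and 1.235 CPM, then 3.969, 3.259 and 2.435 CPM, then 0.2787, 0.7306 and 0.08466 CPM. Every siLRWD1-5 library was above every other library, and the log2 fold change was 1.8 (SE 0.37, adjusted p = 0.00285, edgeR). With siLRWD1-6 the libraries overlapped with scrambled, and the change was -1.29 (SE 0.53, adjusted p = 0.127, edgeR). That value depended on siLRWD1-6 replicate 2, without which it was -2.23 (adjusted p = 0.0387, edgeR). The PSMB8 and PSMB9 calls with siLRWD1-5 held without any one library.

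PSMB10 did not follow them. It was at 14.4, 17.67 and 11.5 CPM in the scrambled libraries, at 12.22, 13.63 and 12.26 CPM with siLRWD1-5 and at 11.01, 10.08 and 13.63 CPM with siLRWD1-6. The groups overlapped, and the log2 fold changes were -0.19 (SE 0.16, adjusted p = 0.37, edgeR) and -0.33 (SE 0.16, adjusted p = 0.193, edgeR). Each immunoproteasome subunit takes the place of a constitutive partner, so its level per kb was also expressed as a share of the pair. PSMB8 made up 1.797% ± 0.0615 (SD, n = 3) of PSMB8 plus PSMB5 in the scrambled group, 3.831% ± 0.662 with siLRWD1-5 and 1.419% ± 0.0716 with siLRWD1-6. PSMB9 made up 0.441% ± 0.15, 1.686% ± 0.341 and 0.2014% ± 0.184 of PSMB9 plus PSMB6, and PSMB10 5.721% ± 0.688, 5.399% ± 0.128 and 5.186% ± 0.742 of PSMB10 plus PSMB7. So even with siLRWD1-5 the constitutive partner made up most of the mRNA of each pair. PSMB8 shares 28.9% of its words with the antisense gene PSMB8-AS1, and the kit did not mark strand, so reads of these genes cannot be told apart. PSMB9 shares 12.1% of its words with PSMB8 and PSMB8-AS1, which makes its low counts less certain too.

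**Figure D4:**
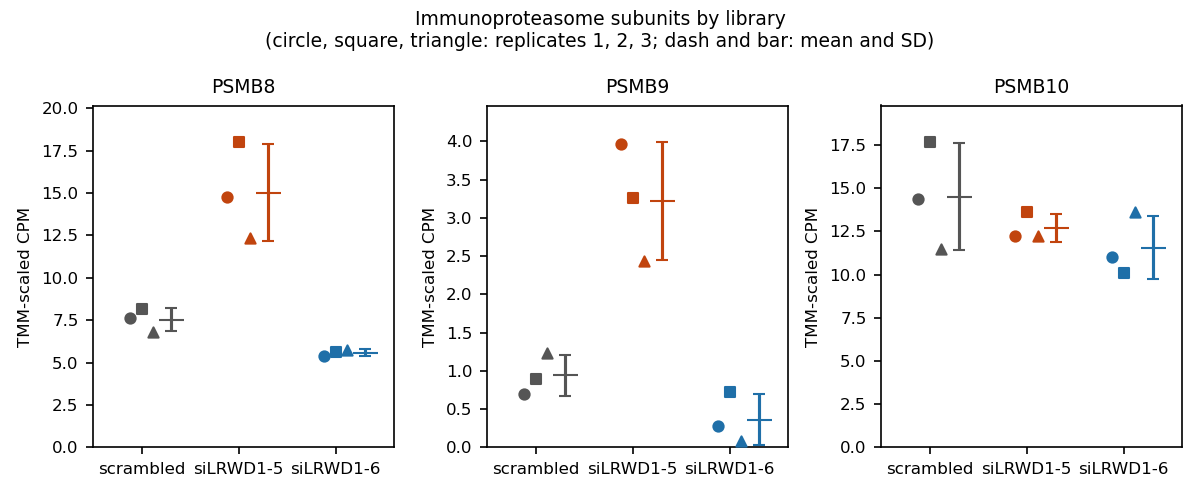
TMM-scaled CPM of PSMB8, PSMB9 and PSMB10 in each library (circle, square and triangle for replicates 1, 2 and 3; dash and bar for the mean and SD). PSMB8 and PSMB9 are highest in the siLRWD1-5 libraries, at 12.34 to 18 and 2.435 to 3.969 CPM, while the groups overlap for PSMB10.

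PSMB8 and PSMB9 lie in the class II region of the major histocompatibility complex on chromosome 6, next to the peptide transporter genes TAP1 and TAP2, and PSMB9 and TAP1 are transcribed in opposite directions from start sites 488 bases apart. PSMB10 is on chromosome 16. Their promoters are printed because these genes split: PSMB8, PSMB9 and TAP1 rose with siLRWD1-5 and PSMB10 did not. The sequences are from RefSeq (GRCh38.p14), each 280 bases on the gene's own strand from 250 bases before the start site: PSMB8 at chr6:32844018-32844297 (minus strand), PSMB9 at chr6:32853942-32854221 (plus), PSMB10 at chr16:67936821-67937100 (minus) and TAP1 at chr6:32853675-32853954 (minus). Capitals mark matches, on either strand, to the motifs named in the next paragraph.
PSMB8: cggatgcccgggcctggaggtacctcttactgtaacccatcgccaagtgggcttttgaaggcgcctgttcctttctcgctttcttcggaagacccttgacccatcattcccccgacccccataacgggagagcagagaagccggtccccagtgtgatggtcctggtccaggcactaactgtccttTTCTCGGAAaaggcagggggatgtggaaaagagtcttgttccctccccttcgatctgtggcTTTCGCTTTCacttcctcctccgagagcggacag
PSMB9: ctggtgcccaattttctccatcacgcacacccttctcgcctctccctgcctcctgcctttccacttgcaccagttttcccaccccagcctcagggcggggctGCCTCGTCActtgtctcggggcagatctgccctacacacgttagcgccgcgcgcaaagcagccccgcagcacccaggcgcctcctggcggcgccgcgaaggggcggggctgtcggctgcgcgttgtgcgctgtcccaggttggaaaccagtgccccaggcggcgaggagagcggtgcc
PSMB10: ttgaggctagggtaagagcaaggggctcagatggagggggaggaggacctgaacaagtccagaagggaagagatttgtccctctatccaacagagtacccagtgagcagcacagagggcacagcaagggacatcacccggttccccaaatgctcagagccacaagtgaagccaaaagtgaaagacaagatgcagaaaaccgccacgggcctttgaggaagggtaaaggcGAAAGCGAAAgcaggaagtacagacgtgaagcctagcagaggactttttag
TAP1: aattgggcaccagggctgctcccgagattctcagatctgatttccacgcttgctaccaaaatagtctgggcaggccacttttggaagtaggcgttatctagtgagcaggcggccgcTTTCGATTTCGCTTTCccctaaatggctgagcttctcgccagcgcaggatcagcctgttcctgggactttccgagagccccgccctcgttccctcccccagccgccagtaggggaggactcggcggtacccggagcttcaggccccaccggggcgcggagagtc

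Cores of 3 motifs were searched on both strands in these windows, of which 35116 from 27305 genes served as the comparison. The core of the interferon-stimulated response element was written as GAAA, any 2 bases and GAAA again, and 4.15% of genes had it. The interferon gamma-activated site was written as TTCNNNGAA (8.95% of genes) and the antioxidant response element as TGACNNNGC (14.9% of genes), to which NFE2L1, the main activator of proteasome genes, and NFE2L2 bind with small MAF proteins. PSMB8 held the first at -4 to 6 and the second at -65 to -57, counted from the start site, and a further annotated PSMB8 start had neither. PSMB10 held the first at -21 to -12. PSMB9 held only the third, at -148 to -140, and TAP1 held overlapping copies of the first, at -134 to -125 and -128 to -119, between the start sites of TAP1 and PSMB9 but outside the PSMB9 window. A further annotated TAP1 start had only the second motif, at -189 to -181. The interferon element was thus present in PSMB10, which did not rise, as well as in PSMB8. A match describes letters only and says nothing of binding.

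Promoter windows were matched for 34 of the 39 genes, all but PSMA7, PSMB1, PSMB6, PSMB7 and PSMD4. Of the 29 constitutive members matched, 2 held the interferon-stimulated element (6.9%) and 7 the antioxidant element (24.1%), among them PSMD9 and PSMD12. Of the matched genes called lower with siLRWD1-5, PSMD9 and PSMC5 held the antioxidant element and PSMC4 the interferon gamma-activated site. The others, PSMA1, PSMB2, PSMC1, PSMC2, PSMC3, PSMD1, PSMD7, PSMD10 and PSMD14, held none of the searched interferon and antioxidant motifs. A CCAAT box was present in 18 of the 34 matched members (52.9%, against 38.7% of all genes), and TATAAA in 5 (14.7%, against 13.6%).

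With siLRWD1-6 fewer members were called. PSMD7 was the only one higher (2.7% of 37 against 8.81% of all genes tested) and 6 were lower (16.2% against 7.78%), in the same edgeR test. The median log2 fold change was -0.11, against -0.02 over all genes, and 34 of 37 members were below 0. In 17 members every siLRWD1-6 library was below every scrambled library, which held for 17.3% of all genes. Without scrambled replicate 2, 6 members were called lower and 1 higher, with a median of -0.07, but 13.3% of all genes were then called lower and 15.3% higher. The 16.2% of members called lower was thus close to the share of all genes in that fit. This comparison and that of siLRWD1-5 share the scrambled libraries, so the values are set side by side without a test of their likeness.

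PSMD7 was at 154.3, 157.9 and 155.9 CPM in the scrambled libraries and at 185.8, 189.5 and 191.8 CPM with siLRWD1-6. The groups were well separated, and the log2 fold change was 0.28 (SE 0.05, adjusted p = 0.00526, edgeR). The call held without any one library. Of the transcript words of PSMD7, 46.9% also occur in other genes, mainly in AC009120.2.

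The genes called lower with siLRWD1-6 changed by small amounts. They were PSMB6 (-0.25 on the log2 scale, adjusted p = 0.0143), PSMC5 (-0.24, 0.0173), PSMD3 (-0.22, 0.019), PSMC3 (-0.21, 0.0156), PSMB2 (-0.21, 0.0229) and PSMD1 (-0.19, 0.0305), all by edgeR. The same genes had -0.20, -0.21, -0.11, -0.17, -0.57 and -0.71 with siLRWD1-5. PSMD1, for example, was at 360.9, 357.3 and 346.4 CPM with siLRWD1-6, lower than in every scrambled library but far above the siLRWD1-5 libraries. PSMB6 was at 172.5, 170.4 and 170.3 CPM, below all scrambled libraries and within the range with siLRWD1-5.

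None of these 6 calls held without each single library. Each was lost without each siLRWD1-6 library, and without replicate 2 PSMB9 was called lower instead. The adjusted p-values were then 0.0551, 0.0578 and 0.0654 for PSMB6 without replicates 1, 2 and 3, 0.0879, 0.0512 and 0.0613 for PSMC5, 0.0955, 0.0589 and 0.0586 for PSMD3, 0.0671, 0.0625 and 0.0655 for PSMC3, 0.0631, 0.082 and 0.114 for PSMB2 and 0.0844, 0.0873 and 0.147 for PSMD1 (edgeR). PSMB2 was also lost without scrambled replicate 1 (0.0711), and PSMD1 without scrambled replicate 1 (0.0547) or 3 (0.0652) or siLRWD1-5 replicate 1 (0.0517) or 2 (0.0522). The sign stayed the same in each case.

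Compared directly, 9 members were higher with siLRWD1-6 than with siLRWD1-5 (24.3%, against 22.4% of all genes tested) and 2 were lower (5.41%, against 20.9%). The median log2 difference was 0.00219 over the members. PSMB1 differed by 0.92 (SE 0.07, adjusted p = 1.34e-06, edgeR), PSMD1 by 0.52 (adjusted p = 1.63e-05), PSMD7 by 0.43 (adjusted p = 7.98e-05), PSMA7 by 0.43 (adjusted p = 0.00023) and PSMB2 by 0.37 (adjusted p = 0.00028). PSMD9, PSMC4, PSMC2 and PSMD14 differed by 0.19 to 0.33. The last 2 calls were not stable: PSMC2 was lost without siLRWD1-5 replicate 3 (adjusted p = 0.091, edgeR) or siLRWD1-6 replicate 1 (0.072) or 2 (0.0565), and PSMD14 without any siLRWD1-5 library (0.0635, 0.0787 and 0.121) or siLRWD1-6 replicate 1 (0.0934) or 2 (0.129).

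The 2 members lower with siLRWD1-6 than with siLRWD1-5 were PSMB8, with a log2 difference of -1.43 (SE 0.15, adjusted p = 2.3e-05, edgeR), and PSMB9, with -3.08 (SE 0.44, adjusted p = 0.000196, edgeR). Both calls held without any one library. Without scrambled replicate 2, 4 members were called lower and 11 higher in this comparison, where 25.9% of all genes were lower and 28.5% higher. LRWD1 itself had log2 fold changes of -2.24 with siLRWD1-5 and -2.72 with siLRWD1-6, and differed by -0.48 between them (adjusted p = 0.00582, edgeR).

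Other genes of the pathway were described by 7 lists with 62 genes, all of them tested. With siLRWD1-5, 11 were higher (17.7%, against 18.5% of all genes) and 20 lower (32.3%, against 20.3%). With siLRWD1-6, 3 were higher (4.84%, against 8.81%) and 6 lower (9.68%, against 7.78%). The share higher with siLRWD1-5 and the share lower with siLRWD1-6 were thus near those of all genes. Of the 6 assembly genes of the core, POMP, the chaperone on which the beta rings mature, was at 107.3, 115.9 and 99.92 CPM in the scrambled libraries and at 72.14, 70.51 and 65.84 CPM with siLRWD1-5. The groups were separate, with a log2 fold change of -0.63 (SE 0.08, adjusted p = 6.67e-05, edgeR). PAAF1, an assembly factor of the ATPase ring, was at -0.47 (adjusted p = 0.0059), and PSMG4 was at 0.32 (adjusted p = 0.0206), which was lost without scrambled replicate 3 (0.072) or siLRWD1-5 replicate 2 (0.0842).

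Of 5 activators and inhibitors that cap the core, the nuclear activator gene PSME3 had a log2 fold change of -0.49 with siLRWD1-5 (adjusted p = 0.00244, edgeR) and of -0.27 with siLRWD1-6 (adjusted p = 0.0888). PSME1 and PSME2 encode the interferon-responsive activator that often pairs with the immunoproteasome. PSME1 was at 111.1, 111.8 and 104.2 CPM in the scrambled libraries and at 125.2, 136.7 and 114.3 CPM with siLRWD1-5. The groups were separate by a small margin, and the change of 0.20 (adjusted p = 0.0405, edgeR) was lost in 7 of the 9 fits that left out a library, with adjusted p-values of up to 0.152. PSME2 was at -0.10 and was not called.

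UBA1, the main enzyme that activates ubiquitin at the head of the pathway, was at 698.5, 738.9 and 704.4 CPM in the scrambled libraries, at 328.2, 374.3 and 354.9 CPM with siLRWD1-5 and at 637.2, 648.6 and 682.9 CPM with siLRWD1-6. The siLRWD1-5 libraries stood far below the rest, with a log2 fold change of -1.02 (SE 0.06, adjusted p = 5.13e-07, edgeR). With it, 4 of 8 genes for ubiquitin and the p97 complex were lower with siLRWD1-5, including RPS27A at -0.46 and NPLOC4 at -0.32, and the list's median was -0.22. The share of all genes called lower was 20.3%. Of 12 genes for ubiquitin receptors, shuttles and deubiquitinases, 5 were lower (41.7%, with a list median of -0.06), among them UBQLN2 (-0.57) and the proteasome scaffold KIAA0368 (-0.35), with adjusted p-values of 0.000187 and 0.00142 (edgeR). UBQLN2 was lower with siLRWD1-6 too, by 0.62, as was UBE3C, a ubiquitin ligase of the proteasome, by 0.50 (adjusted p = 0.000376 and 0.000377, edgeR).

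NFE2L1 is released by the protease DDI2 when proteasomes fail and then activates subunit genes. NFE2L1 was at 520.5, 640.8 and 533.9 CPM in the scrambled libraries and at 655.8, 668.1 and 636.3 CPM with siLRWD1-5, so the ranges overlapped through scrambled replicate 2. Its change of 0.21 (adjusted p = 0.0445, edgeR) was lost in 8 of the 9 fits that left out a library, with adjusted p-values of up to 0.16, and was 0.31 (adjusted p = 6.43e-05) without scrambled replicate 2. DDI2 was lower by 0.67 (adjusted p = 0.0115, edgeR), NFE2L2 by 0.29 (adjusted p = 0.00804) and MAFG by 0.55 (adjusted p = 0.00268). The median of the 7 genes of this list was -0.29 with siLRWD1-5 and 0.03 with siLRWD1-6. Of 8 antioxidant targets of NFE2L2, HMOX1 was lower with siLRWD1-5 by 1.70 (adjusted p = 0.0107, edgeR), a value set in part by scrambled replicate 2, which was at 55.27 CPM against 21.1 and 19.44 CPM in the others. Without that library it was -1.06. SLC7A11, a cystine transporter gene, was higher with siLRWD1-6 by 1.15 (adjusted p = 0.00111, edgeR).

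**Figure D5:**
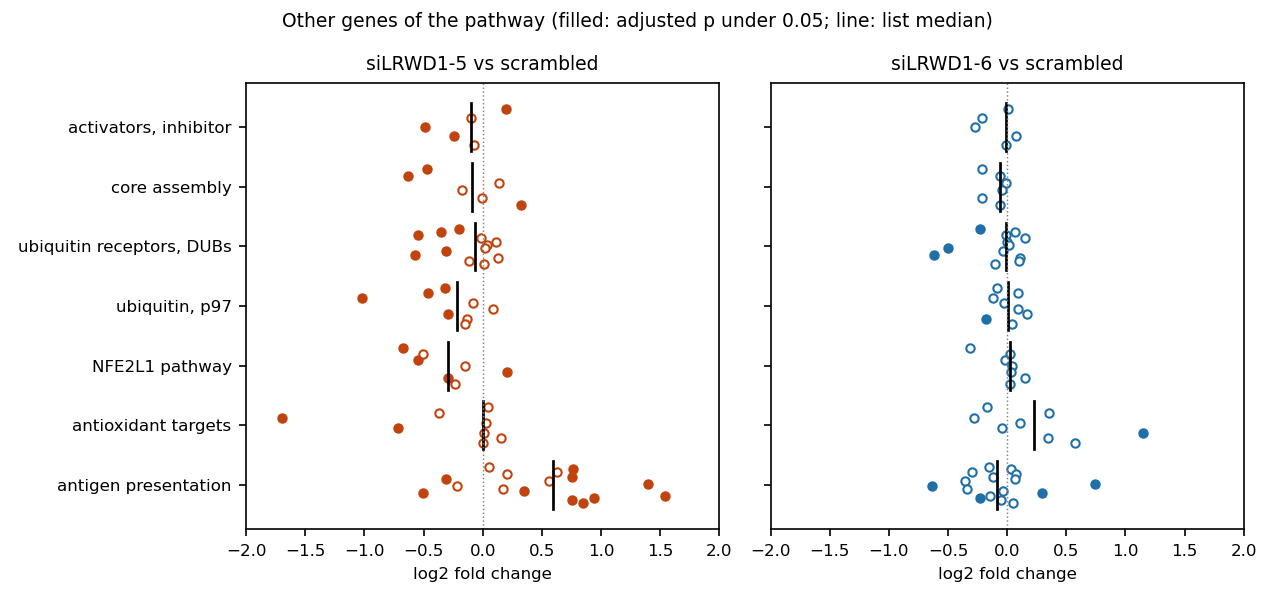
Log2 fold changes of the 62 other pathway genes by list, for siLRWD1-5 (left) and siLRWD1-6 (right) against scrambled; filled points have an adjusted p under 0.05, and the vertical line of each list is its median. The antigen presentation list has the highest median with siLRWD1-5, at 0.60, and a median of -0.09 with siLRWD1-6, while UBA1 is the lowest point of the ubiquitin list.

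The antigen presentation list holds the genes that take up proteasome products. With siLRWD1-5 8 of its 16 genes were called higher and 2 lower (median 0.60), where 18.5% and 20.3% of all genes were called. With siLRWD1-6 2 were called higher and 2 lower (median -0.09), where 8.81% and 7.78% of all genes were called. TAP1, one chain of the transporter that carries peptides into the endoplasmic reticulum, was at 8.592, 11.83 and 9.336 CPM in the scrambled libraries, at 28.79, 29.33 and 27.93 CPM with siLRWD1-5 and at 8.153, 9.133 and 9.567 CPM with siLRWD1-6. The siLRWD1-5 libraries stood above all others, with a log2 fold change of 1.54 (SE 0.12, adjusted p = 3.22e-06, edgeR). TAP2 rose by 0.95 (adjusted p = 1.38e-06), the peptide-trimming enzyme gene ERAP1 by 0.76 (adjusted p = 4.43e-06) and the peptide-loading chaperone gene TAPBP by 0.75 (adjusted p = 5.02e-06, edgeR). In the direct comparison 11 of the 16 were lower with siLRWD1-6 than with siLRWD1-5 and 2 were higher, against 20.9% and 22.4% of all genes.

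The transcription factor gene IRF1, which acts on PSMB8, PSMB9 and TAP1 in interferon responses, was higher with both siRNAs. It was at 12.95, 16.61 and 12.35 CPM in the scrambled libraries, at 31.38, 45.48 and 33.2 CPM with siLRWD1-5 and at 20.76, 24.84 and 24.38 CPM with siLRWD1-6. The 3 groups did not overlap, and the log2 fold changes were 1.40 (SE 0.16, adjusted p = 6.6e-05, edgeR) and 0.74 (SE 0.16, adjusted p = 0.0108, edgeR). B2M, which encodes the invariant chain of class I molecules, was at 0.05 with siLRWD1-5 and was not called. Reads of HLA genes can be shared between them, so HLA-B at 0.76 and HLA-C at -0.31 are uncertain.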

How the data were processed

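RNA sequencing covered 9 libraries made with a TruSeq kit that keeps no strand information. Raw counts by gene symbol, not normalized, were deposited as 1 table. The submitters' processing notes name hg19, HTSeq 0.5.4p3, TopHat2 2.0.10 and bcl2fastq 1.8.4. How reads were assigned to genes, with which annotation and strand setting, is not given in the sources used here. Members and gene lists were chosen with earlier results of these data known.

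Low genes were removed by filterByExpr, and those kept held 99.92% or more of each library's counts. After TMM scaling they were tested in edgeR 4.0.16 (R 4.3.3, robust quasi-likelihood fit, group as the only term, all 9 libraries), with Benjamini-Hochberg adjustment over the 13648 genes tested and calls at an adjusted p under 0.05. Groups and replicate numbers came from the labels, and the p-values measure the spread between independent experiments. Every member could be named, plus LRWD1 and, of each other list, up to 4 called genes with the smallest p and others with their values. In simulated counts for siLRWD1-5, 198 of 13515 genes were changed. The fit recovered 58.5%, 80.6% and 97% of changes of 0.5, 1 and 2 on the log2 scale. Unchanged genes made up 5.45% of its calls. In the data many more genes were called with siLRWD1-5 (2527 higher and 2765 lower), so these shares may differ there.

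CPM per kb used GENCODE v29 exon lengths (GRCh38, another build than that of the counts). Shared 50-base words were taken from the longest transcript of each member and looked up on both strands of all GENCODE transcripts. Promoter positions refer to GRCh38.p14. Between scrambled and siLRWD1-5, libraries with the same number had correlated deviations from their group means (0.251, 0.371 and 0.114). Scrambled replicate 3 correlated better with siLRWD1-5 replicate 1 (0.138) than with replicate 3. Whether a number marks a shared experiment is not stated in the sources used here. The main fit left the numbers out, and an alternative fit used them as a block. For siLRWD1-5 against scrambled, the block fit called 2 members higher and 15 lower, the same counts as without it. Over all 13648 genes it called 2887 higher and 3038 lower, against 2527 and 2765 without it. Alternatives were RLE size factors, no scaling, other count filters, DESeq2 1.42.0, limma-voom (limma 3.58.1), the block, separate fits per pair of groups, and omission of each library in turn. A fit of series 1 and 3 only was added after seeing the data. Some genes of the other lists are not reported here by name. Python 3.11.15 was used for tables and figures.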

Additional observations from a re-analysis of the deposited data

How the results depend on the processing

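Under all alternatives run, the calls for PSMB1, PSMD1, PSMA7, PSMB2, PSMD14, PSMD9, PSMD10, PSMA1, PSMC2, PSMB8 and PSMB9 with siLRWD1-5 and for PSMD7 with siLRWD1-6 were kept. Across fits that left out 1 library, members called lower with siLRWD1-5 numbered 10 to 16 and higher 2 to 3, those with siLRWD1-6 lower 0 to 7 and higher 1, and those higher and lower with siLRWD1-6 than with siLRWD1-5 7 to 11 and 2 to 4. Over all genes in these fits (13776 to 13869 tested), 2233 to 3464 were lower and 1956 to 3326 higher with siLRWD1-5. With siLRWD1-6, 546 to 1838 were lower and 702 to 2115 higher. In the direct comparison 2488 to 3954 were higher and 2197 to 3597 lower. The 6 members lower with siLRWD1-6 became 10 with no scaling beyond library size and 3 with only the groups compared. Over all genes 1062 of 13648 became 1213 of 13648 and 696 of 13337. The 2 members lower than with siLRWD1-5 became 7 and 5. The same count over all genes went from 2856 of 13648 to 3609 of 13648 and 3664 of 13466. The cause was not tested. In the siLRWD1-6 comparisons same-numbered libraries had correlations of 0.283, 0.24 and 0.0476 with scrambled and 0.173, 0.231 and 0.0941 with siLRWD1-5. All were positive, and 1 of 3 in each comparison was under 0.1. Scrambled replicate 3 correlated best with siLRWD1-6 replicate 1 (0.0815), and likewise with siLRWD1-5 replicate 1 (0.138) among the siLRWD1-5 libraries. Between the siRNAs each library correlated best with that of its own number. The main fit used the numbers in no comparison. With the replicate block 7 members were lower and 1 higher with siLRWD1-6, and 10 were higher and 3 lower than with siLRWD1-5. The calls over all 13648 genes rose too. With siLRWD1-6, 1343 were lower and 1472 higher (1062 and 1203 in the main fit). Between the siRNAs 3335 were higher and 3157 lower (3063 and 2856 in the main fit). The block added PSMD14 with siLRWD1-6 (-0.20, adjusted p = 0.0351, edgeR) and PSMD10 between the siRNAs (0.24, adjusted p = 0.0292), and changed no call with siLRWD1-5. Signs changed for some values near 0 that passed the threshold in no fit. With siLRWD1-6 against scrambled, PSMB1 was 0.044, PSMC2 0.018 and PSMD9 0.081 with series 1 and 3 only. Leaving out 1 library, PSMB1 ranged from -0.0704 to 0.038, PSMC2 from -0.109 to 0.015, PSMD9 from -0.098 to 0.050 and PSMC4 from -0.036 to 0.14. Between the siRNAs, PSMB10 was 0.000213 and PSMC5 0.000321 with series 1 and 3 only, and PSMB5 was -0.026 and PSMC1 -0.017 with no scaling. Leaving out 1 library, PSMC5 ranged from -0.071 to 0.018 and PSMC1 from -0.033 to 0.101. Depth limits PSMB9, with 1 to 63 counts a library.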
